A study of Mus musculus with 12 samples.

Results

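Mature neutrophils carry a set of transcripts for surface receptors, the NADPH oxidase and the calgranulins, and 30 such genes were followed here in mouse whole blood. They were taken as the rows of the count table whose gene name was on a fixed list of receptors, oxidase subunits, secreted proteins and enzymes without granule proteins. All 30 names were found among the 55367 genes of the table. All 30 also passed the filter on low counts, together with 13384 genes in all.

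The blood came from CB17-SCID mice, which lack mature T and B cells, bearing xenografts of the human bladder cancer line HT1376. The tumour and the immunodeficient strain were shared by all groups. Mice received CPI-0209 (tulmimetostat), an inhibitor of the histone methyltransferases EZH2 and EZH1, at 35 mg per kg by mouth once daily for 11 days, and were bled 1, 6 or 24 h after the final dose. The remaining mice received vehicle for the same 11 days. There were 12 libraries in 4 groups of 3, and the labels do not give the bleeding time of the vehicle mice. They do not say how the 3 samples of a group were obtained, so p-values measure the spread between these samples.

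Neutrophils are short-lived phagocytes that leave the bone marrow once mature and circulate for hours. Granule proteins are transcribed mainly in marrow precursors, whereas receptors for chemoattractants and growth factors, the calgranulins and several secreted proteins are transcribed until late in maturation. The oxidase assembles from membrane and cytosolic subunits and makes superoxide to kill ingested microbes. Receptors such as CXCR2, the formyl peptide receptors and the leukotriene B4 receptor guide the cells to sites of injury.

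Library totals lay between 6496573 and 9978215 counts. The 7 defining neutrophil markers, all of them among the 30 genes, were detected in every library, and their summed level ran from 3853 to 8925 CPM (counts scaled to a common library size, corrected by the TMM method). Ms4a1, a B cell marker, had 0 counts in all 12 libraries. The 10 reticulocyte markers summed to 67256 to 79199 CPM at 6 h, against 37010 to 42486 CPM in vehicle. At 6 h 7 of the 10 rose (adjusted p at most 0.05, edgeR), while 4.84% of all genes passed in either direction. At 24 h the 10 markers summed to 21085, 29174 and 59797 CPM, so the 24 h libraries lay far apart. In whole blood, fewer neutrophils and less RNA per neutrophil cannot be told apart.

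The 30 genes together took 0.940%, 1.05% and 1.38% of all counts in vehicle, 0.973%, 0.979% and 1.09% at 1 h, 0.846%, 0.809% and 1.10% at 6 h, with 1.36%, 1.12% and 0.819% at 24 h. The ranges of all 4 groups overlapped. Means were 1.01 ± 0.0667% at 1 h, 0.918 ± 0.159% at 6 h and 1.10 ± 0.272% at 24 h, against 1.13 ± 0.230% in vehicle (SD, n = 3 each). With 3 libraries a group the smallest two-sided p of an exact permutation test is 0.1, so no test was made on this share.

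**Figure D1:**
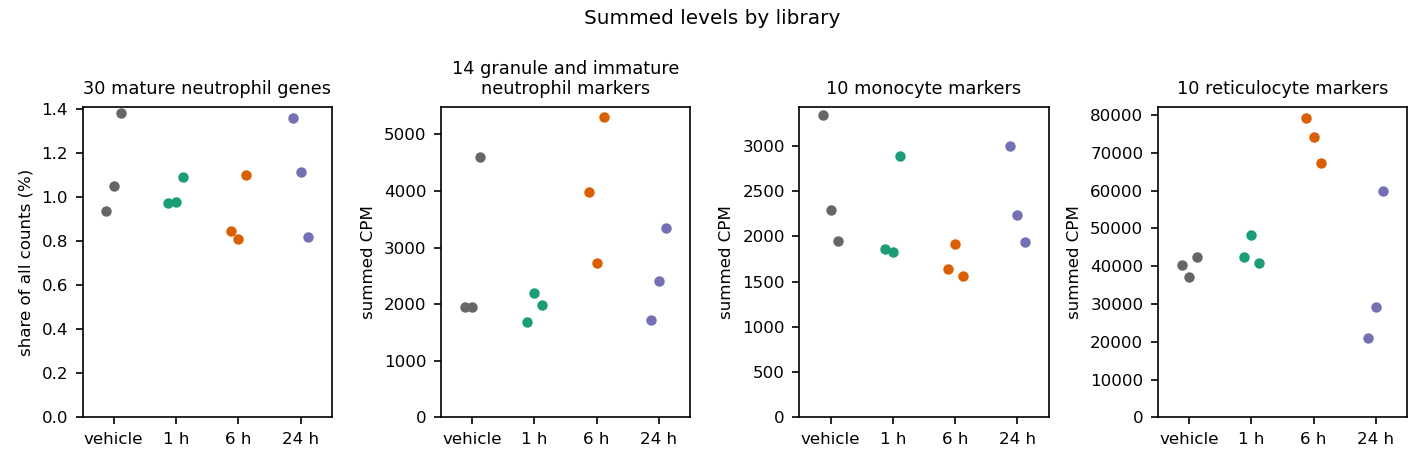
The left panel plots the share of all counts (%) taken by the 30 mature neutrophil genes, and the other panels the summed CPM of 14 granule and immature neutrophil markers, 10 monocyte markers and 10 reticulocyte markers, with 1 point per library in vehicle and at 1, 6 and 24 h. The share of the 30 genes overlaps between groups, while the reticulocyte sum at 6 h lies between 67256 and 79199 CPM, above all vehicle and 1 h libraries.

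Per length of merged exons, the level of Retnlg was the highest of the 30 in every group, with a mean of 1431 ± 484 CPM per kb at 1 h, 5010 ± 1788 at 6 h and 2039 ± 737 at 24 h, against 1688 ± 1150 in vehicle (SD, n = 3 each). Retnlg encodes resistin-like gamma, a small secreted protein. In vehicle it was followed by S100a8 at 688 ± 303, Csf3r at 613 ± 103 and S100a9 at 553 ± 199 CPM per kb, and the libraries of each neighbouring pair in that order overlapped. At 6 h the Retnlg libraries were separate from those of S100a8, which had 1212 ± 481 CPM per kb. The lowest level per length in vehicle was that of Ccrl2, at 3.20 ± 0.754 CPM per kb, and its libraries were separate from those of Trem3, the next gene up, at 9.5 ± 0.865.

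Of the 30 genes, 1 fell and 0 rose at 1 h against vehicle at an adjusted p of at most 0.05 (edgeR's quasi-likelihood test with Benjamini-Hochberg adjustment over all genes tested, as for every adjusted p in the text). Among all genes tested 0.194% were called at 1 h, 0.179% higher and 0.0149% lower. At 6 h 0 of 30 were called, against 4.84% of all genes, and at 24 h 0 of 30, against 0.105% of all genes. The mean of the 3 times against vehicle also gave 0 of 30, against 0.934% of all genes. At an unadjusted p under 0.05 the same edgeR test had 8 of the 30 at 1 h, 5 at 6 h, 3 at 24 h and 6 for the mean of the times, while 6.99%, 19.6%, 8.37% and 10.5% of all genes passed that level. DESeq2 called 2, 4, 1 and 3 of the 30 in these 4 comparisons, where it called 1.58%, 8.67%, 0.828% and 2.94% of the genes to which it gave an adjusted p. limma-voom called 1, 2, 0 and 0, beside 0.127%, 4.98%, 0.0523% and 0.994% of all genes. The 3 times share their vehicle libraries, so these counts are not independent of each other.

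The median log2 fold change of the 30 genes was -0.27 at 1 h, -0.10 at 6 h and -0.21 at 24 h, beside -0.02, -0.04 and 0.01 over all genes tested. The fold change was negative for 23, 17 and 24 of the 30 at the 3 times. It was below 0 at all 3 times for 12 genes and above 0 at all 3 for Ccrl2 and Il1r2 alone. All 3 treated libraries lay below all 3 vehicle libraries for 8 genes at 1 h, 6 at 6 h and 6 at 24 h, where 8.44%, 13.5% and 5.61% of all genes did so. They lay above for 2, 1 and 0 genes, against 8.92%, 15.8% and 6.34% of all genes. Separation of libraries is given on TMM-scaled CPM throughout, and it depended on the scaling. With library totals alone 17 genes lay below vehicle at 6 h and 0 above, against 40.9% and 6.42% of all genes, and 2 lay below at 24 h and 0 above, against 4.45% and 5.42%. Among the genes described one by one, totals alone ended the separation from vehicle of Cybb at 1 h, of Retnlg at 6 h and of Hcar2, Mcemp1, Ncf1 and Slpi at 24 h. Scaling by library totals alone in place of TMM moved the median of all genes by -0.46 at 6 h and by under 0.1 at 1 h and 24 h, and gave 8 of the 30 the other sign at 6 h (Ccrl2, Fpr1, Fpr2, Trem1, Pilra, Ncf1, Ncf4 and Alox5ap). At 1 h it did so for Itgb2 and Lrg1 and at 24 h for Csf3r and Hdc, and DESeq2 size factors did so for Trem1 at 1 h.

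**Figure D2:**
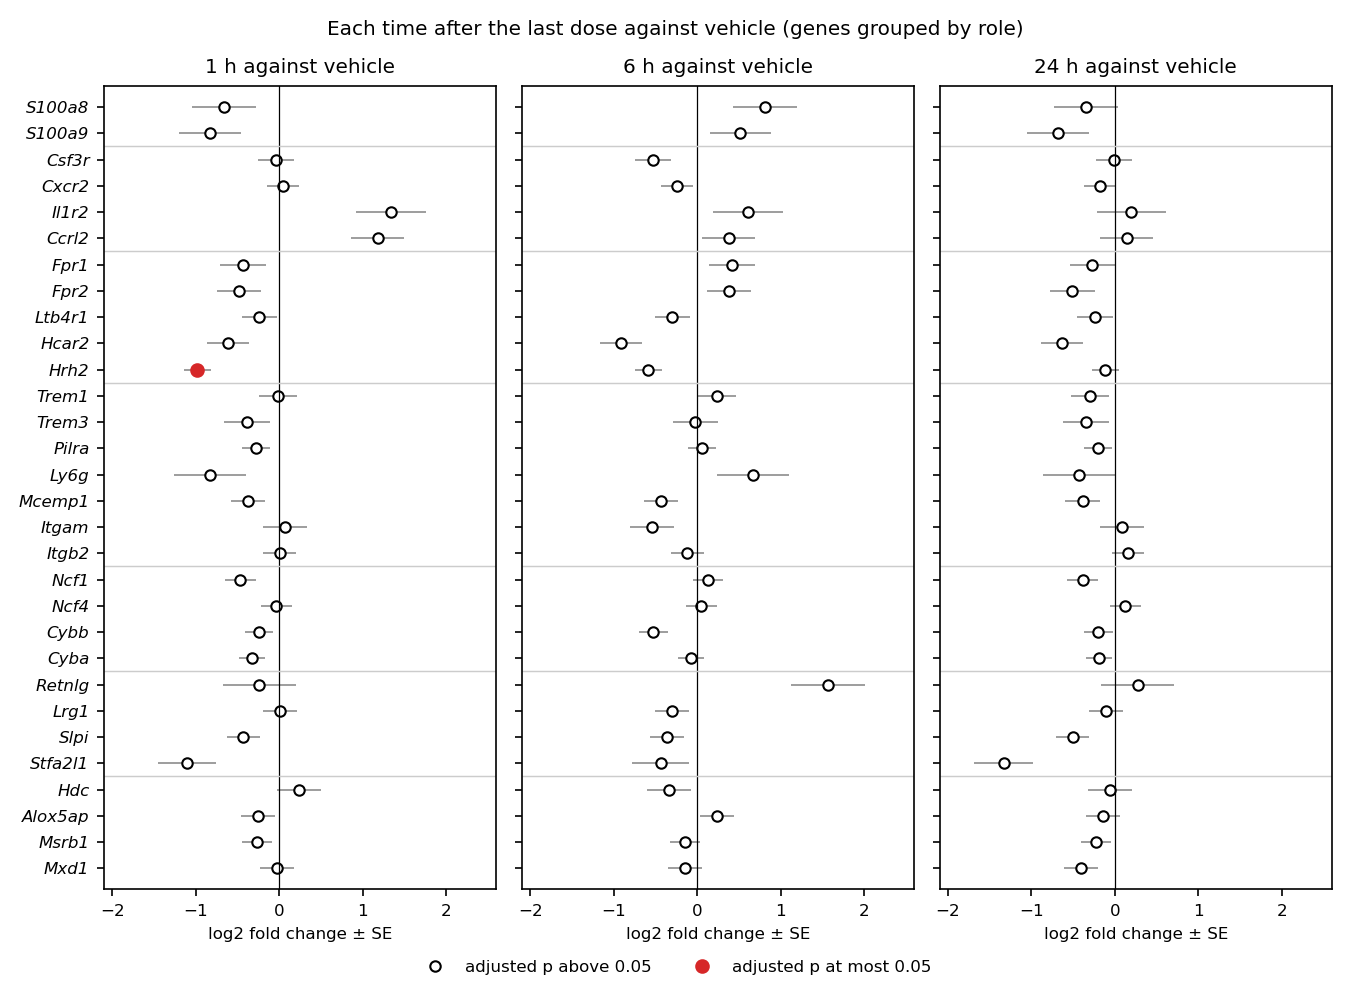
Log2 fold changes with their standard errors (x axis) of the 30 genes, grouped by role from calgranulins at the top to enzymes and Mxd1 at the bottom, at 1, 6 and 24 h against vehicle. The filled point is Hrh2 at 1 h, at -0.98, and all other points are open because their adjusted p was above 0.05.

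Hrh2 encodes the histamine H2 receptor, a G-protein-coupled receptor that dampens several neutrophil responses. It is gene ENSMUSG00000034987, at chr13:54192129-54236180 on the plus strand of GRCm38. Its 250 bases before the RefSeq start (GRCm38.p6, chr13:54191879-54192128, plus strand) are shown because this gene carried the call, with the letters GAGGAAG, a pattern bound by PU.1 and other ETS factors, in capitals.
Hrh2: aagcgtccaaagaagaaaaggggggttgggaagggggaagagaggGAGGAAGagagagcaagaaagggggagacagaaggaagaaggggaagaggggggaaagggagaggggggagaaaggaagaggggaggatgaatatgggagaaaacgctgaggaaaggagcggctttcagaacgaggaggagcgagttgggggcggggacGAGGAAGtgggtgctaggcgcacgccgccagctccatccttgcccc
The level of Hrh2 was 77.3, 79.8 and 95.9 CPM in vehicle, 38.4, 44.4 and 45.2 at 1 h, 62.6, 55.2 and 50.8 CPM at 6 h, and 89.1, 76.6 and 67.8 CPM at 24 h. All libraries at 1 h and at 6 h were below all vehicle libraries, and the 24 h libraries overlapped vehicle. Hrh2 averaged 42.7 ± 3.72 CPM at 1 h, against 84.3 ± 10.1 CPM in vehicle (SD, n = 3 each). It fell by 0.98 on the log2 scale at 1 h (adjusted p = 0.019, SE 0.16, edgeR). The log2 fold change was -0.59 at 6 h (adjusted p = 0.0517, SE 0.16, edgeR) and -0.11 at 24 h (adjusted p = 0.913, edgeR). For the mean of the 3 times it was -0.56 (adjusted p = 0.0551, SE 0.13, edgeR).

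The call at 1 h was lost when any 1 of the 3 vehicle or the 3 libraries at 1 h was left out, with adjusted p of 0.071, 0.117 and 0.0983 without vehicle replicates 1 to 3 and 0.173, 0.0994 and 0.101 without the replicates at 1 h (edgeR). It was also lost with library totals alone (adjusted p = 0.0654, edgeR), while the fold change stayed between -1.03 and -0.86 over all alternatives. In the annotation 145 exon bases of Hrh2 lie over Gm16578 on the other strand, and the sources used here do not give the strand used in counting.

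The calgranulins S100a8 and S100a9 encode calcium-binding proteins that form calprotectin, among the most abundant proteins of neutrophil cytosol. S100a8 lies at chr3:90668978-90670035 and S100a9 at chr3:90692632-90695721 of GRCm38. S100a8 had 284, 447 and 701 CPM in vehicle, 237, 377 and 288 at 1 h, 739, 570.3 and 1214 CPM at 6 h, and 215, 339 and 576 CPM at 24 h. Its 6 h libraries were above all 1 h libraries and overlapped vehicle. S100a9, chosen after its values were seen, had 183, 292 and 391 CPM in vehicle, 119.5, 231 and 137 at 1 h, 361, 296 and 582 CPM at 6 h, and 118, 144 and 279 CPM at 24 h. Its 6 h libraries were above all libraries at 1 h and at 24 h, and every group overlapped vehicle.

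Neither calgranulin passed the test in a comparison with vehicle. The log2 fold change of S100a8 was -0.67 at 1 h (adjusted p = 0.8, SE 0.38), 0.82 at 6 h (adjusted p = 0.257) and -0.34 at 24 h (adjusted p = 0.87) against vehicle, by edgeR. For S100a9 it was -0.83 at 1 h (adjusted p = 0.681, SE 0.37), 0.52 at 6 h (adjusted p = 0.473) and -0.68 at 24 h (adjusted p = 0.665), by edgeR. Between times, 6 h against 1 h gave 1.48 for S100a8 (adjusted p = 0.0831, SE 0.39) and 1.35 for S100a9 (adjusted p = 0.0923, SE 0.37), by edgeR.

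Among the secreted proteins and protease inhibitors, Retnlg (chr16:48872621-48874496, GRCm38) differed most from vehicle at 6 h and Stfa2l1 at 1 h and 24 h. Its promoter is shown beside those of S100a9 and Slpi because these 3 windows hold TTGCNNAA on either strand, a pattern of C/EBP factors, in capitals; the capitals CACGTG in Slpi mark an E-box. The windows are 250 bases before the RefSeq start in GRCm38.p6, at chr16:48872358-48872607 (plus strand) for Retnlg, chr3:90695722-90695971 (minus strand) for S100a9 and chr2:164356508-164356757 (minus strand) for Slpi.
Retnlg: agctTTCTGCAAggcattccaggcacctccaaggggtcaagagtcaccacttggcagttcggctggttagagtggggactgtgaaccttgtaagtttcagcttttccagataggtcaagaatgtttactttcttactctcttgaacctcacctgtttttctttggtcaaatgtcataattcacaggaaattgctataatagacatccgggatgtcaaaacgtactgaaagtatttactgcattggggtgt
S100a9: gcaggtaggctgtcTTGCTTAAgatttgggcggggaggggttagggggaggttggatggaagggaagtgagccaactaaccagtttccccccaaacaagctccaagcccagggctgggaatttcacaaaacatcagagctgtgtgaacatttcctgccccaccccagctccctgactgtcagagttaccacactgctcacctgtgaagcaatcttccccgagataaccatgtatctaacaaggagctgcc
Slpi: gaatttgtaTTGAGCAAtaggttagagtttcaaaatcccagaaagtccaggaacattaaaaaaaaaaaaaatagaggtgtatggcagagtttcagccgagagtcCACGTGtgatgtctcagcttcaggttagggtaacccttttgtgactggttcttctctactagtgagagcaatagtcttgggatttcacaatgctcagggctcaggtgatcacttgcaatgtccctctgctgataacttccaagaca
A match of letters is a description, not a site. RefSeq gave 29 promoters for 25 of the 30 genes. TTGCNNAA was in 5 of the 29 (17.2%), for Ly6g, Pilra, Retnlg, S100a9 and Slpi, and in 9.56% of all 32851 promoters of the same length. GAGGAAG was in 9 of the 29 (31.0%) and in 10.6% of all promoters. By gene it was in 7 of the 25, Csf3r, Hrh2, Itgam, Ltb4r1, Ly6g, Pilra and S100a8. The windows of Hrh2 overlap each other, as do those of Ly6g, so the 9 count some matches more than once. CACGTG was in 2 (6.90%), for Il1r2 and Slpi, against 6.02% of all promoters, and the palindromic pattern of the glucocorticoid receptor was in 0, against 0.387% of all. Both strands were searched, and some genes had more than 1 window.

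Retnlg had 476, 755 and 1771 CPM in vehicle, 529, 1084 and 931 at 1 h, 2829, 1988 and 4095 CPM at 6 h, and 779, 1196 and 1653 CPM at 24 h. All 6 h libraries were above every other library of the series on this scale, and with library totals alone they overlapped vehicle. Retnlg averaged 2971 ± 1060 CPM at 6 h, against 1001 ± 682 CPM in vehicle (SD, n = 3 each). The log2 fold change at 6 h was 1.57 (adjusted p = 0.0589, SE 0.45, edgeR), just outside the threshold. At 6 h against 1 h it was 1.81 (adjusted p = 0.0798, SE 0.45, edgeR) and at 24 h against 6 h -1.30 (adjusted p = 0.111, SE 0.44, edgeR). Against vehicle it was -0.24 at 1 h (adjusted p = 0.965, edgeR) and 0.27 at 24 h (adjusted p = 0.927, edgeR). At 6 h Retnlg passed in DESeq2 (adjusted p = 0.0467) and limma-voom (adjusted p = 0.0365). Without vehicle replicate 3, the highest of its group, the fold change was 2.26 at 6 h (adjusted p = 0.0136, edgeR) and was called, and it was 0.49 at 1 h and 0.98 at 24 h, neither called.

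Stfa2l1 encodes a stefin-like inhibitor of cysteine proteases in a family of near-identical mouse genes on chromosome 16, so the share of reads assigned to it is uncertain. It had 37.3, 55.0 and 79.0 CPM in vehicle, 15.9, 32.2 and 30.9 at 1 h, 32.3, 37.4 and 56.9 CPM at 6 h, and 13.7, 24.2 and 30.3 CPM at 24 h. The libraries at 1 h and 24 h were below all vehicle libraries, and those at 6 h overlapped them. The log2 fold changes were -1.11 at 1 h (adjusted p = 0.332, SE 0.35), -0.44 at 6 h (adjusted p = 0.526) and -1.33 at 24 h (adjusted p = 0.28, SE 0.35), by edgeR. DESeq2 called the difference at 24 h (adjusted p = 0.0326), and so did edgeR with the replicate number as a block (adjusted p = 0.0174).

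Slpi encodes the secretory leukocyte peptidase inhibitor, which blocks neutrophil elastase. Its level was 52.3, 45.5 and 43.6 CPM in vehicle, 29.7, 37.8 and 37.4 at 1 h, 30.9, 36.5 and 42.5 CPM at 6 h, and 41.8, 32.4 and 25.2 CPM at 24 h. All 9 treated libraries were below all 3 vehicle libraries, although those at 24 h overlapped vehicle with library totals alone. The log2 fold changes were -0.43 at 1 h (adjusted p = 0.714, SE 0.20), -0.36 at 6 h (adjusted p = 0.342) and -0.51 at 24 h (adjusted p = 0.52), and the mean of the times gave -0.43 (adjusted p = 0.318), by edgeR. Lrg1, a secreted leucine-rich glycoprotein, ran from 283 to 404 CPM over the 9 treated libraries and from 263 to 467 CPM in vehicle.

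**Figure D3:**
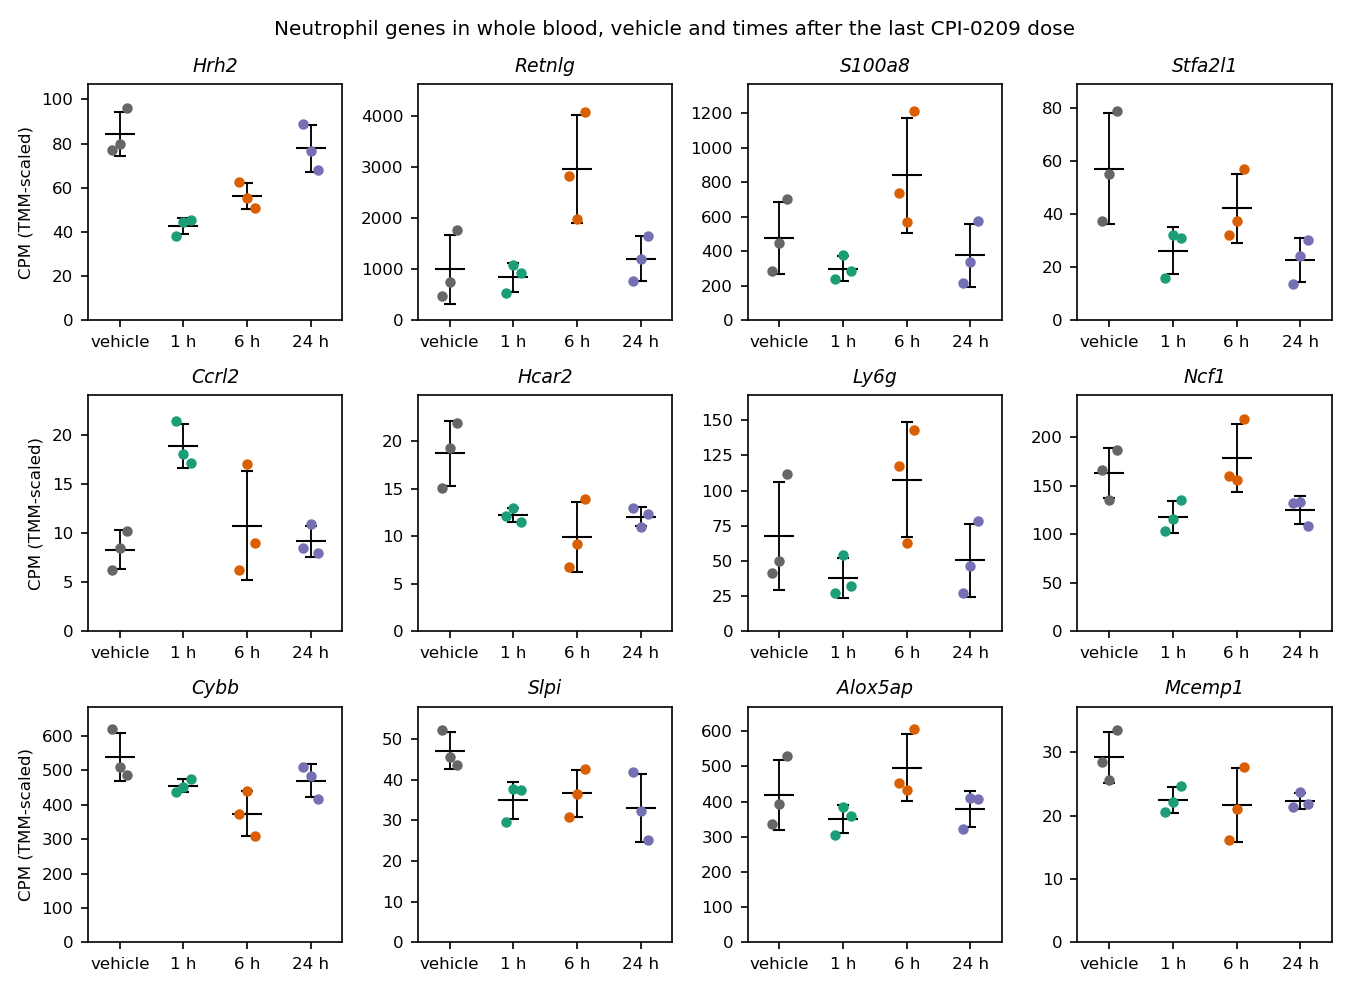
CPM on TMM-scaled library sizes (y axis, from 0) of 12 neutrophil genes in vehicle and at 1, 6 and 24 h after the last dose, with 1 point per library, a horizontal line at the mean and bars of 1 SD (n = 3). Hrh2 has its 1 h libraries at 38.4 to 45.2 CPM, under the vehicle libraries at 77.3 to 95.9, and Retnlg has its 6 h libraries at 1988 to 4095 CPM, above all others.

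The cytokine and chemokine receptors had fold changes of either sign. Ccrl2 encodes an atypical receptor that binds chemerin. It had 6.28, 8.49 and 10.2 CPM in vehicle, 21.4, 18.0 and 17.1 at 1 h, 6.27, 17.0 and 9.0 CPM at 6 h, and 8.5, 10.9 and 7.97 CPM at 24 h. The 1 h libraries were above all vehicle libraries, and the other times overlapped vehicle. Its log2 fold change was 1.18 at 1 h (adjusted p = 0.212, SE 0.32, edgeR), and DESeq2 called it (adjusted p = 0.0304). At 6 h it was 0.38 and at 24 h 0.14, neither called.

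Il1r2, the decoy receptor for interleukin-1, was chosen after its values were seen. It had 18.9, 33.1 and 89.3 CPM in vehicle, 91.8, 132 and 133 at 1 h, 46.3, 69.6 and 99.4 CPM at 6 h, and 47.5, 59.6 and 54.9 CPM at 24 h. The 1 h libraries were above all vehicle libraries, although vehicle replicate 3, at 89.3 CPM, was close to the lowest of them. The log2 fold changes were 1.34 at 1 h (adjusted p = 0.346, SE 0.42), 0.61 at 6 h and 0.20 at 24 h, with none called by edgeR. Without vehicle replicate 3 the values were 2.21 at 1 h (adjusted p = 0.0185) and 1.45 at 6 h (adjusted p = 0.0325), both called by edgeR.

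Csf3r, the receptor for granulocyte colony-stimulating factor and also named after its values were seen, had 1921, 2084 and 2627 CPM in vehicle, 2200, 1996 and 2263 at 1 h, 1451, 1494 and 1672 CPM at 6 h, and 2860, 2025 and 1681 CPM at 24 h. The 6 h libraries were below every vehicle library and every library of the other times. The log2 fold change at 6 h was -0.52 against vehicle (adjusted p = 0.19, SE 0.22, edgeR) and -0.48 against 1 h (adjusted p = 0.22, SE 0.22, edgeR). Cxcr2, the main chemokine receptor of neutrophils, ran from 923 to 1271 CPM over the 9 treated libraries and from 928 to 1504 CPM in vehicle, and its groups overlapped vehicle at each time.

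Hcar2, the receptor for niacin and beta-hydroxybutyrate, had 15.1, 19.2 and 21.9 CPM in vehicle, 12.1, 13 and 11.5 at 1 h, 6.72, 9.16 and 13.9 CPM at 6 h, and 12.9, 10.9 and 12.3 CPM at 24 h. Every treated library was below every vehicle library, although the 24 h libraries overlapped vehicle with library totals alone. The log2 fold changes were -0.62 at 1 h (adjusted p = 0.593, SE 0.25), -0.91 at 6 h (adjusted p = 0.0532, SE 0.25) and -0.63 at 24 h (adjusted p = 0.51), by edgeR. At 6 h Hcar2 passed in DESeq2 (adjusted p = 0.0164) and limma-voom (adjusted p = 0.0431).

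The chemoattractant receptors Fpr1 and Fpr2, which sense formylated bacterial peptides, and Ltb4r1, which senses leukotriene B4, were not called by edgeR in a comparison with vehicle or between times. Fpr2, named after its values were seen, had 126, 184 and 272 CPM in vehicle, 114, 162 and 139.9 at 1 h, 201, 226 and 330.0 CPM at 6 h, and 109.6, 138 and 161 CPM at 24 h. Its 6 h libraries were above all libraries at 1 h and 24 h and overlapped vehicle. The log2 difference was 0.86 at 6 h against 1 h (adjusted p = 0.112, SE 0.27) and -0.89 at 24 h against 6 h (adjusted p = 0.0843, SE 0.27), by edgeR. DESeq2 called Fpr2 in both (adjusted p = 0.0383 and 0.026) and Fpr1 at 6 h against 1 h (adjusted p = 0.0467). Fpr1 ran from 51.6 to 160 CPM over the treated libraries and from 61.2 to 138 CPM in vehicle. Fpr2 shares 48 exon bases with Fpr3 in the annotation. Ltb4r1 stayed between 15.3 and 29.4 CPM in all 12 libraries.

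The 7 other surface molecules did not pass the test against vehicle. Ly6g, the surface protein by which mouse neutrophils are sorted, had 41.7, 50.2 and 112 CPM in vehicle, 27.4, 54.4 and 32.5 at 1 h, 117, 62.9 and 143 CPM at 6 h, and 27.0, 46.1 and 78.1 CPM at 24 h. Its 6 h libraries were above all 1 h libraries and overlapped vehicle. The log2 difference was 1.50 at 6 h against 1 h (adjusted p = 0.102, SE 0.44) and 0.67 at 6 h against vehicle (adjusted p = 0.42), by edgeR.

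Mcemp1, a membrane protein of mast cells and myeloid cells, had 28.5, 25.7 and 33.6 CPM in vehicle, 20.6, 22.1 and 24.8 at 1 h, 16.1, 21.0 and 27.8 CPM at 6 h, and 21.4, 23.7 and 21.9 CPM at 24 h. The libraries at 1 h and 24 h were below all vehicle libraries, and the 6 h libraries overlapped them. The log2 fold changes were -0.38 at 1 h, -0.43 at 6 h (adjusted p = 0.262, edgeR) and -0.39 at 24 h.

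Itgam and Itgb2 encode the chains of the integrin Mac-1, which binds complement fragments and ICAM-1. Itgam, named after its values were seen, had 408, 306 and 391 CPM in vehicle, 354, 343 and 456 at 1 h, 213, 290.3 and 257 CPM at 6 h, and 600.1, 291 and 283 CPM at 24 h. The 6 h libraries were the lowest group, below all vehicle and all 1 h libraries, with a log2 fold change of -0.54 against vehicle (adjusted p = 0.279, edgeR). Itgam shares 3450 exon bases with Gm49368 in the annotation, so its count is uncertain. Itgb2 lay between 473 and 808 CPM in all libraries. The highest library for both chains was 24 h replicate 1, at 600 and 808 CPM.

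Trem1 and Trem3, activating receptors that signal through DAP12, and Pilra, an inhibitory receptor, had fold changes between -0.39 and 0.24 on the log2 scale at every time against vehicle. Trem1 ran from 52.0 to 98.3 CPM over the treated libraries and from 46.7 to 101 CPM in vehicle. Trem3 was a low transcript, between 5.58 and 12.5 CPM. Pilra ran from 115 to 185 CPM over all libraries and shares 468 exon bases with Zcwpw1.

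Within the NADPH oxidase, Ncf1 encodes the cytosolic organiser subunit. It had 166, 136 and 187 CPM in vehicle, 103, 115 and 135 at 1 h, 159.8, 156 and 219 CPM at 6 h, and 132, 133 and 108 CPM at 24 h. The libraries at 1 h and 24 h were below all vehicle libraries, and those at 6 h overlapped them. The log2 fold changes were -0.47 at 1 h (adjusted p = 0.575, SE 0.18), 0.13 at 6 h and -0.38 at 24 h (adjusted p = 0.616), by edgeR. Ncf1 shares 408 exon bases with Gtf2ird2 on the other strand.

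Cybb encodes the catalytic subunit of the oxidase. It had 619, 509.7 and 487 CPM in vehicle, 437, 453 and 475 at 1 h, 373, 440.1 and 309.9 CPM at 6 h, and 508, 484 and 417 CPM at 24 h. The libraries at 1 h and 6 h were below all vehicle libraries, and those at 24 h overlapped them. The log2 fold change was -0.24 at 1 h, -0.53 at 6 h (adjusted p = 0.101, SE 0.17, edgeR) and -0.20 at 24 h, and DESeq2 called it at 6 h (adjusted p = 0.0278). Cyba, the partner of Cybb in the membrane, lay between 65.7 and 94.3 CPM and Ncf4, a cytosolic subunit that binds phosphoinositides, between 61.6 and 101 CPM in all libraries.

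Alox5ap encodes the protein that presents arachidonic acid to 5-lipoxygenase in leukotriene synthesis. It had 336, 393 and 529 CPM in vehicle, 306, 384 and 359.8 at 1 h, 453, 432 and 605 CPM at 6 h, and 321, 411 and 407 CPM at 24 h. Every time overlapped vehicle, while the 6 h libraries were above all libraries at 1 h and 24 h. The log2 difference at 6 h against 1 h was 0.50 (adjusted p = 0.184, SE 0.20, edgeR). Alox5ap shares 189 exon bases with Gm19719 on the other strand.

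Hdc, the enzyme that makes histamine, ran from 140 to 235 CPM over the treated libraries and from 125 to 288 CPM in vehicle. Mxd1, a partner of MAX that represses MYC targets, ran from 806 to 1102 CPM in treated blood and from 816 to 1498 CPM in vehicle. Msrb1, a selenoprotein that reduces methionine sulfoxide, ran from 476 to 639 CPM in treated blood and from 468 to 687 CPM in vehicle. For all 3 genes vehicle replicate 3 was the highest of the 12 libraries.

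**Figure D4:**
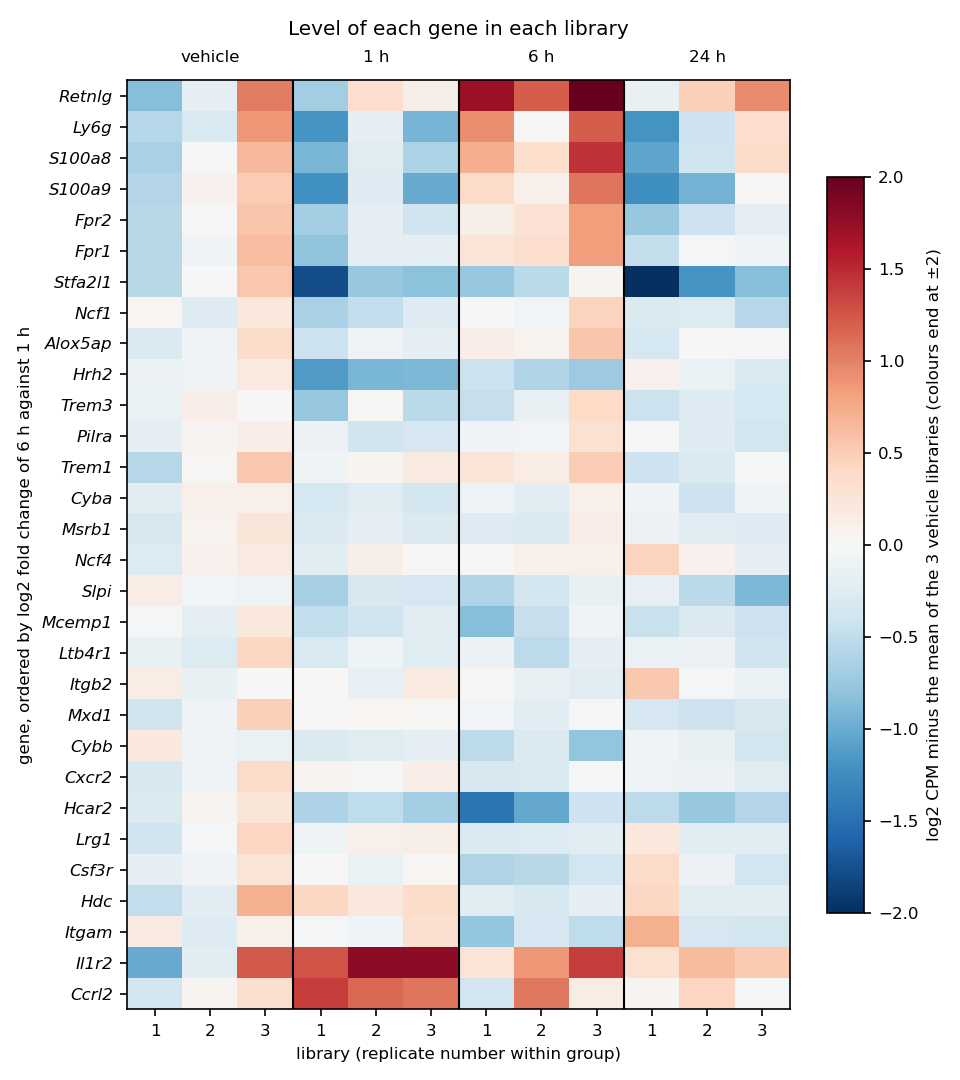
Log2 CPM of the 30 genes in each of the 12 libraries minus the mean of the 3 vehicle libraries (colour, ending at ±2), with genes ordered by the log2 difference of 6 h against 1 h, from Retnlg at 1.81 to Ccrl2 at -0.80. Vehicle replicate 3 and 6 h replicate 3 are the reddest of their groups, each the highest of its 3 libraries for 24 of the 30 genes.

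Libraries of the same group were far apart for part of these genes. Vehicle replicate 3 was the highest of the vehicle libraries for 24 of the 30 genes, and 6 h replicate 3 the highest at 6 h for 24 of the 30. Within vehicle the highest library was 1.60-fold above the lowest at the median gene and 4.72-fold for Il1r2. The same median was 1.25-fold at 1 h, 1.39-fold at 6 h and 1.33-fold at 24 h.

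Between the times, 0 of 30 genes were called by edgeR at 6 h against 1 h, where 0.493% of all genes were, 0 of 30 at 24 h against 6 h, where 1.76% were, and 0 of 30 at 24 h against 1 h, where 0.0224% were. At an unadjusted p under 0.05 there were 13, 12 and 3 of the 30, beside 20.7%, 22.1% and 6.11% of all genes. DESeq2 called 7, 3 and 1 of the 30, beside 9.22%, 9.82% and 0.206% of the genes to which it gave an adjusted p. limma-voom called 0 in each, beside 0.493%, 5.45% and 0.0374% of all genes. The 7 that DESeq2 called at 6 h against 1 h, all higher at 6 h, were S100a8, S100a9, Fpr1, Fpr2, Ly6g, Ncf1 and Retnlg.

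At 6 h against 1 h the libraries did not overlap for 12 genes higher and 7 genes lower at 6 h, where 18.1% and 13.8% of all genes were separated in those directions. At 24 h against 6 h they did not overlap for 2 genes higher and 9 lower at 24 h, beside 10.5% and 12% of all genes. At 24 h against 1 h there were 1 and 4, beside 5.64% and 4.74%. With library totals alone the balance turned: 3 genes were higher (S100a8, S100a9 and Retnlg) and 16 lower at 6 h against 1 h, beside 6.02% and 37.9% of all genes, and 5 were higher and 2 lower at 24 h against 6 h, beside 26.4% and 4.29%. Fpr2, Ly6g and Alox5ap were then no longer separated between 6 h and 1 h. The median log2 difference of the 30 genes was 0.11 at 6 h against 1 h, -0.19 at 24 h against 6 h and 0.03 at 24 h against 1 h, beside 0.00, 0.04 and 0.02 over all genes. Library totals alone moved the median of all genes by -0.43 at 6 h against 1 h and by 0.53 at 24 h against 6 h, and gave 8 and 10 of the 30 genes the other sign in these comparisons, so the medians of the 30 became -0.32 and 0.34.

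These counts moved when some libraries were left out, among them 24 h libraries for comparisons without that group. Leaving out a library changes the filter, the scaling and the shared estimate of the spread, and the part of each was not tested. Without 24 h replicate 1, 4 of the 30 were called at 6 h against vehicle (Hcar2, Hrh2, Cybb and Retnlg), 1 for the mean of the times (Hrh2) and 5 at 6 h against 1 h (edgeR), while 8.63%, 2.56% and 7.21% of all genes tested were. Without 24 h replicate 3, the same comparisons gave 4, 1 and 6, with 8 at 24 h against 6 h and 1 at 24 h against 1 h (edgeR), beside 8.99%, 1.71%, 9.12%, 15.9% and 1.46% of all genes. Leaving out vehicle replicate 3 gave 2 calls at 6 h, Il1r2 and Retnlg, and 1 for the mean, Il1r2, beside 2.52% and 0.355% of all genes. Leaving out 6 h replicate 3 gave 1 call at 6 h and 1 for the mean, both Hcar2, beside 2.39% and 0.617% of all genes. Without the whole 24 h group, an alternative chosen after seeing the data, 6 were called at 6 h against vehicle and 8 at 6 h against 1 h (edgeR), beside 12.5% and 13% of all genes.

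Counts of one gene per count of another within a library do not depend on the scaling between libraries. Csf3r was taken as the common denominator after the values were seen, and the ratios are a description without a test. Csf3r was itself lowest at 6 h, at 1451 to 1672 CPM and below all other libraries, which raises every ratio to it at 6 h. Retnlg had 0.248, 0.362 and 0.674 counts per Csf3r count in vehicle, 0.240, 0.543 and 0.412 at 1 h, 1.95, 1.33 and 2.45 at 6 h, with 0.272, 0.590 and 0.983 at 24 h. The 6 h libraries were above all 9 others. S100a8 had 0.148, 0.215 and 0.267 counts per Csf3r count in vehicle, 0.108, 0.189 and 0.127 at 1 h, 0.510, 0.382 and 0.726 at 6 h, with 0.0750, 0.167 and 0.343 at 24 h. Again the 6 h libraries were above all others, although the CPM of S100a8 at 6 h overlapped vehicle. Ly6g had 0.0217, 0.0241 and 0.0427 counts per Csf3r count in vehicle, 0.0124, 0.0273 and 0.0144 at 1 h, 0.0808, 0.0421 and 0.0858 at 6 h, with 0.00945, 0.0228 and 0.0465 at 24 h. Here 6 h replicate 2 was below vehicle replicate 3 and 24 h replicate 3, so the 6 h libraries overlapped both groups.

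Hrh2 had 0.0175, 0.0222 and 0.0200 counts per Csf3r count at 1 h, against 0.0402, 0.0383 and 0.0365 in vehicle. At 6 h Hrh2 had 0.0431, 0.0370 and 0.0304 and at 24 h 0.0311, 0.0378 and 0.0403, and both times overlapped vehicle. All 1 h libraries were below the 9 others, of which the lowest was 0.0304, at 6 h. Il1r2 had 0.0417, 0.0660 and 0.0586 counts per Csf3r count at 1 h, against 0.00986, 0.0159 and 0.0340 in vehicle, with no overlap. Retnlg took 25.6%, 19.9% and 29.0% of the counts of the 30 genes at 6 h, against 5.66%, 7.81% and 13.2% in vehicle. Csf3r took 13.1%, 15.0% and 11.8% at 6 h, against 22.8%, 21.6% and 19.5% in vehicle. Both shares were separated between the groups.

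**Figure D5:**
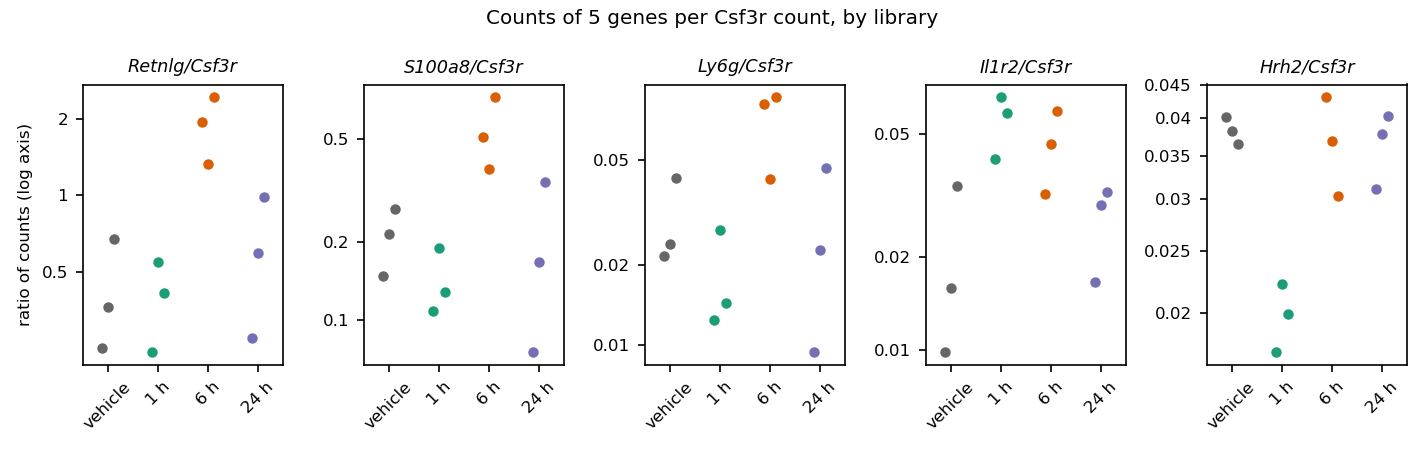
Counts of Retnlg, S100a8, Ly6g, Il1r2 and Hrh2 per count of Csf3r in the same library (y axis, log scale), with 1 point per library in vehicle and at 1, 6 and 24 h. Retnlg and S100a8 are highest in the 6 h libraries, at 1.33 to 2.45 and 0.382 to 0.726, and Hrh2 is lowest in the 1 h libraries, at 0.0175 to 0.0222.

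Sums of cell type markers are given beside the differences at 6 h. The 14 granule and immature neutrophil markers summed to 1945 to 4606 CPM in vehicle, where replicate 3 had the highest sum, and 1681 to 2197 CPM at 1 h. They summed to 2727 to 5300 CPM at 6 h, which overlapped vehicle, and to 1725 to 3338.5 CPM at 24 h. At most 1 of the 14 was at 0 in any library. Of the 13 tested, Mmp8, the neutrophil collagenase of the specific granules, rose at 6 h by 1.38 on the log2 scale (adjusted p = 0.0456, SE 0.37, edgeR), and 0 fell. Of all genes 4.84% were called at 6 h. The 13 had a median log2 fold change of 0.15 at 6 h, with 7 above 0. Their part in the differences of Retnlg, Ly6g and the calgranulins was not tested.

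The 10 monocyte markers summed to 1558 to 1916 CPM at 6 h, against 1946 to 3340 CPM in vehicle, with none at 0 in any library. At 6 h 1 of the 10 fell, Ccr2, a chemokine receptor of classical monocytes (log2 fold change -0.63, adjusted p = 0.0479, edgeR), beside 4.84% of all genes called. Itgam, Itgb2, Cybb and Csf3r are also transcribed in monocytes, and the part of monocytes in their values was not tested. Basophil and mast cell markers, 7 in all, summed to 29.1 to 80.5 CPM over the 12 libraries, and the 7 eosinophil markers to 26.1 to 206 CPM. Hdc and Mcemp1 are also transcribed in mast cells, and the part of these cell types was not tested. At 1 h, where Hrh2 fell, the basophil and mast cell markers summed to 29.1 to 35.5 CPM, against 30.7 to 49.9 CPM in vehicle, and the sums overlapped. Their mean log2(CPM + 1) was 1.36, 1.33 and 1.17 at 1 h, against 2.08, 1.51 and 1.65 in vehicle, with no overlap. The 5 of these markers tested had a median log2 fold change of -1.23 at 1 h, with 1 of the 5 above 0 and 0 called by edgeR. At 6 h, where the Hrh2 libraries also lay below vehicle, the markers went the other way. They then summed to 40.4 to 80.5 CPM, which overlapped vehicle, and the 5 had a median of 0.52, with 4 above 0. Of the 5, Gata2 rose at 6 h (log2 fold change 0.88, adjusted p = 0.0441, edgeR), beside 4.84% of all genes called. The part of these cell types in the level of Hrh2 was not tested.

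Shorter and longer genes had different medians in part of the comparisons. The 15 genes with the shortest merged exons, split at a median of 1701 bases, had a median log2 difference of 0.50 at 6 h against 1 h, while the 15 longer ones had -0.28. Split at the same length, 1626 shorter and 11742 longer genes of the whole table had medians of 0.10 and -0.01. At 24 h against 6 h the shorter and longer genes of the 30 had -0.39 and 0.08, beside -0.06 and 0.05 over all genes. At 24 h against 1 h the medians of the shorter and longer genes of the 30 were 0.05 and 0.02, beside 0.06 and 0.01 over all genes. Against vehicle the shorter genes of the 30 had medians of -0.39, -0.02 and -0.34 at the 3 times, and the longer ones of -0.03, -0.15 and -0.11. Over all genes the shorter ones had -0.11, -0.02 and -0.05 and the longer ones -0.01, -0.05 and 0.01. The part of length in these differences was not tested.

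Other genes of the same pathways were mostly not called by edgeR. Of the 85 tested genes in 10 pathway lists, 0 passed at 1 h and 0 at 24 h against vehicle, beside 0.194% and 0.105% of all genes. At an unadjusted p under 0.05 (edgeR) there were 13 at each time, beside 6.99% and 8.37% of all genes. DESeq2 called 2 at each, beside 1.58% and 0.828% of the genes to which it gave an adjusted p. limma-voom called 0, beside 0.127% and 0.0523%. At 6 h edgeR called 2 of the 85, DESeq2 10 and limma-voom 4, beside 4.84%, 8.67% and 4.98%. At 6 h, 1 of 12 other cytokine receptors of neutrophils rose, Il1r1, the signalling receptor for interleukin-1, by 1.67 on the log2 scale (adjusted p = 0.0333, SE 0.41). Of 7 tested ligands of the 30 genes' receptors, 1 rose at 6 h, Saa3, a serum amyloid A gene of a family whose human members bind FPR2, by 1.95 (adjusted p = 0.0449, SE 0.52). Of 9 adhesion and Fc receptors 0 passed against vehicle. Fcgr2b, the inhibitory receptor for immunoglobulin G, fell at 6 h against 1 h by 1.04 (adjusted p = 0.0212, SE 0.16, edgeR). It rose at 24 h against 6 h by 0.98 (adjusted p = 0.0201, SE 0.16, edgeR). In these 2 comparisons 0.493% and 1.76% of all genes were called.

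The remaining 7 lists, with 57 tested genes, had 0 genes called in the 7 comparisons by edgeR, where 0.0224% to 4.84% of all genes were. They held 7 genes of the oxidase and its proton channel, 8 other chemoattractant receptors, 4 of leukotriene synthesis, 11 pattern and C-type lectin receptors, 4 stefins and calgranulin partners, 8 of the MAX network and 15 other neutrophil-rich blood transcripts. Against vehicle, 10 of the 57 were at an unadjusted p under 0.05 (edgeR) at 1 h, 9 at 6 h and 10 at 24 h. Of all genes 6.99%, 19.6% and 8.37% were. DESeq2 called 1, 5 and 1, beside 1.58%, 8.67% and 0.828% of the genes to which it gave an adjusted p. limma-voom called 0, 2 and 0, beside 0.127%, 4.98% and 0.0523% of all genes. Between the times, 18 were at that level at 6 h against 1 h, 12 at 24 h against 6 h and 4 at 24 h against 1 h. Of all genes 20.7%, 22.1% and 6.11% were. DESeq2 called 9, 3 and 1, beside 9.22%, 9.82% and 0.206%. limma-voom called 0, 1 and 0, beside 0.493%, 5.45% and 0.0374%.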

How the data were processed

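Whole-blood RNA was measured in 12 libraries. Per the labels, a PAXgene kit was used for extraction, and ribosomal RNA was depleted before paired-end sequencing. The authors deposited whole-number counts per gene, not scaled to library size, for 55367 mouse Ensembl genes. Per the submitters' processing notes RSEM was used (version not listed), and whether its estimates were rounded is unknown. The notes list build hg38 although the identifiers are mouse, with aligner, annotation and strand not given in the sources used here. Gene positions came from GENCODE M21 (GRCm38), which held 55111 of the identifiers, and promoters from RefSeq (GRCm38.p6).

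Counts were analysed in R 4.3.3 with edgeR 4.0.16. The filter filterByExpr by group kept 13384 genes. After TMM scaling, a quasi-likelihood model with a mean for each of the 4 groups was fitted across the 12 libraries. The fit was tested on simulated data. There were 7 contrasts, with Benjamini-Hochberg adjustment over all genes tested and a threshold of 0.05. Standard errors are the log2 fold change divided by the root of the F statistic. Alternatives were DESeq2 1.42.0, limma-voom (limma 3.58.1), DESeq2 size factors, library totals, no filter, 5 CPM in 3 libraries, only the groups compared, a replicate block and each library left out. DESeq2 size factors and TMM left the median of all genes within 0.1 of each other.

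Library totals of 6496573 to 9978215 counts and 3 libraries a group set the precision. Genes were named in full if called, if all treated libraries lay on 1 side of vehicle at 2 or more times, or if of smallest p in their role, and 5 were added after their values were seen. The 30 genes and the lists were chosen with earlier results of these data known.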

Additional observations from a re-analysis of the deposited data

How the results depend on the processing

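The sign of the Hrh2 fold change at 1 h was the same in all alternatives, and its adjusted p ran from 2.32e-05 to 0.173. The number of the 30 genes called moved with the processing, in the order 1 h, 6 h, 24 h and mean of the times against vehicle, 6 h against 1 h, 24 h against 6 h and 24 h against 1 h, where the reported counts were 1, 0, 0, 0, 0, 0 and 0. DESeq2 gave 2, 4, 1, 3, 7, 3 and 1, no filter 6, 4, 1, 3, 7, 7 and 2, and library totals alone 0, 7, 0, 1, 2, 7 and 0. A filter of 5 CPM gave 2 at 6 h and 1 for the mean, and limma-voom 2 at 6 h. Fitting only the groups compared gave 2 at 1 h, 4 at 6 h and 11 at 6 h against 1 h. Without the 24 h group there were 6 at 6 h and 8 at 6 h against 1 h. Leaving out each library gave 0 to 1, 0 to 4, 0 to 0, 0 to 1, 0 to 6, 0 to 8 and 0 to 1. DESeq2 size factors in edgeR moved none of the 7 counts. The number called over all genes tested moved as well, and its share is not given here for each setting. These counts of the 30 therefore describe the processing and are not read as a result about the 30 genes. Outside the fits that left out 1 library it ran from 17 to 288 at 1 h, 624 to 1832 at 6 h and 1 to 237 at 24 h. For the mean it ran from 127 to 499. Between the times it ran from 50 to 1720 at 6 h against 1 h, 0 to 2951 at 24 h against 6 h and 1 to 107 at 24 h against 1 h. The cause of these movements was not tested, and library totals alone shifted the median of all genes by -0.46 at 6 h, -0.14 for the mean, -0.43 at 6 h against 1 h and 0.53 at 24 h against 6 h.

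With the replicate number as a block the counts were 2, 2, 1, 1, 2, 5 and 0. The share of all genes called under this block model is not given here. These counts therefore also describe the processing and are not read as a result about the neutrophil genes. Deviations from the group mean had a mean r of 0.0157 over 18 pairs of the same number (from -0.111 to 0.168). Over 36 pairs of other numbers it was -0.00785 (from -0.182 to 0.179). With 3 libraries a group this cannot decide whether a number marks a shared cage, day or batch, and the labels do not say. Genes called over all genes when a library was left out ran from 7 to 165 at 1 h (26 with all libraries), 239 to 1266 at 6 h (648), 3 to 112 at 24 h (14), 14 to 357 for the mean (125), 4 to 1285 at 6 h against 1 h (66), 0 to 2243 at 24 h against 6 h (235) and 0 to 205 at 24 h against 1 h (3). Genes of a few CPM, such as Ccrl2 and Trem3, had the least depth.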
